A study of Mus musculus with 20 samples.

Results

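The genes described are 8 long noncoding RNAs, Malat1, Neat1, Miat, Pantr1, Meg3, Rian, Mirg and Kcnq1ot1, taken by symbol from the deposited expression tables. All 8 were present in each of the 4 tables, which together hold 14700 gene symbols. They were measured by RNA sequencing of total RNA in primary cortical neurons of the mouse, isolated at embryonic day 15 and cultured for 7 days. The 2 genotypes were wild type (WT) and a knockout (KO) that lacks Cdr1as, a circular RNA also called ciRS-7. Every library, WT included, has the strain label C57BL/6N-Cdr1asem1Nikr. N_WT and N_KO were kept for 12 h in normoxia with 25 mM glucose and 0.2 mM pyruvate. OGD_WT and OGD_KO spent the same 12 h at 1% oxygen in medium to which no glucose or pyruvate was added, a treatment called oxygen and glucose deprivation (OGD). OGD is used as a culture model of ischemia. Each group had 5 libraries, numbered 1 to 5, and the labels do not say how many embryos went into a culture or whether embryos were pooled. The batch labels of replicates 1 to 5 were 1, 3.3, 3.2, 3.3 and 3.1 in WT. In KO they were 1, 3.1, 2, 3.1 and 3.3, so that batch 2 occurred in KO only.

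Long noncoding RNAs are transcripts without a protein product, and several stay in the nucleus. Malat1 is a component of nuclear speckles, the compartments rich in splicing factors. The long form of Neat1 is the scaffold of paraspeckles, nuclear bodies that hold proteins such as Sfpq and Nono. Meg3, Rian and Mirg are transcribed from the maternal allele of the imprinted Dlk1-Dio3 region and carry clusters of small nucleolar RNAs and microRNAs. Kcnq1ot1 is the paternally expressed antisense transcript that silences neighbouring genes of the Kcnq1 imprinted region in cis. Miat is a nuclear RNA of neurons, also called Gomafu, and Pantr1 lies beside the neural transcription factor gene Pou3f3.

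In GENCODE M21 on GRCm38, the assembly also called mm10, Malat1 lies on chromosome 19 from 5795690 to 5802672 on the minus strand and Neat1 from 5824708 to 5845478 on the same strand, 22035 bases away. On the plus strand of chromosome 12, Meg3 runs from 109541001 to 109571726, Rian from 109603940 to 109661716 and Mirg from 109729764 to 109749460. Rian begins 32213 bases after the end of Meg3, and Mirg 68047 bases after the end of Rian. Miat lies on chromosome 5 from 112213228 to 112229395, Kcnq1ot1 on chromosome 7 from 143203458 to 143296549 and Pantr1 on chromosome 1 from 42590782 to 42694842, all 3 on the minus strand. The library kit keeps the strand, but whether the counting used it is not given in the sources used here, so reads of Kcnq1ot1 and of overlapping genes on the other strand, Kcnq1 among them, cannot be told apart. Kcnq1 is not among the genes of the tables. The annotated gene Gm37376, on the strand opposite Malat1, and the small nucleolar RNA gene Gm26922, inside Rian on its strand, are in the tables, and how reads were shared with them is not known.

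The sequences that bear on the comparisons are the promoters of members that were called higher, called lower or not called under OGD, the sites for miR-7 and a few of the microRNAs that lie in the imprinted transcripts. The RefSeq promoter table (GRCm38.p6, 250 bases before to 50 after the start) held entries for 6 of the members. Neat1 and Pantr1 are named only. Both strands were searched for the core of the hypoxia response element, in the forms ACGTG (found in 19.6% of all 32851 promoters) and GCGTG (32.4%), and for the cyclic AMP response element TGACGTCA (1.79%). Capitals mark a match on either strand, positions count from the transcription start, and the 3 promoters shown are that of Malat1, which rose, of Meg3, which fell, and of Kcnq1ot1, which was not called. Each is written 5′ to 3′ on the strand of its gene, and they cover chr19:5802623-5802922, chr12:109540746-109541045 and chr7:143296498-143296797.
Malat1: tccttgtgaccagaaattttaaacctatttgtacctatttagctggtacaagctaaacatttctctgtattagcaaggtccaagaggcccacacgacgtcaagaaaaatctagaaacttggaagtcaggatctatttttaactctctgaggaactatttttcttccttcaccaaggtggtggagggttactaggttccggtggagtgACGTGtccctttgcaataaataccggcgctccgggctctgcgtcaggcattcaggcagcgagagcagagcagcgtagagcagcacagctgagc
Meg3: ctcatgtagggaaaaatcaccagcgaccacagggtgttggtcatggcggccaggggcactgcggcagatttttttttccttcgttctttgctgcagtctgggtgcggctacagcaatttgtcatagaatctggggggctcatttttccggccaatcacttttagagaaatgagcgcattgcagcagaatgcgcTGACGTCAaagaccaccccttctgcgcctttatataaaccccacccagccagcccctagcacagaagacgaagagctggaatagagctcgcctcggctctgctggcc
Kcnq1ot1: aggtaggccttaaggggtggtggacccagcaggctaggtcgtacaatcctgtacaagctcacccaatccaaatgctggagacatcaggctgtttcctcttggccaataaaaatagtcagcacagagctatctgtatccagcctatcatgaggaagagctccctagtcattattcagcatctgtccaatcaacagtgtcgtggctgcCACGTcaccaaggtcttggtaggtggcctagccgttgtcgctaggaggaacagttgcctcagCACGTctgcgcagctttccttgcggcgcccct
The Malat1 promoter held ACGTG once, 43 bases before the start. The Kcnq1ot1 promoter held it at 44 bases before and again at position 19 after the start. Meg3 held the cyclic AMP response element 57 bases before the start. None of the 3 motifs was found in the windows of Rian and Mirg or in that of a second Meg3 start. The Mirg window, chr12:109734731-109735030, lies inside the gene, which begins at 109729764 in GENCODE M21, so that start was not searched. Miat held GCGTG once, 182 bases before the start. A match describes letters in the window only.

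Cdr1as, the circular RNA removed in KO, is known for its many sites for the microRNA miR-7, so the members were also searched for the 8-base miR-7 site GTCTTCCA in their longest GENCODE M21 transcript. The mature sequence is from RefSeq, with its seed (bases 2 to 8) in capitals, and each 30-base window has the site in capitals.
miR-7a-5p: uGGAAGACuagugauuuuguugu
Neat1: ggttgaaggttGTCTTCCAtgtgttatggt
Miat: gtagctcttctGTCTTCCAgagtcatccag
Neat1 held the site once, at position 18985 of 20771, and Miat once, at position 1973 of 9163. The other 6 members held no 8-base site. How often other transcripts hold it is not given here. Of shorter sites of 7 bases, Meg3 and Rian held 2 each and Kcnq1ot1 4 in 93092 bases, and Malat1, Mirg and Pantr1 held 0.

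The microRNA genes of RefSeq that lie within the imprinted members are 2 in Meg3, 3 in Rian and 14 in Mirg, with 3, 6 and 26 mature microRNAs. These 35 mature sequences have 34 different seeds, and the one shared seed belongs to miR-453 and miR-496a-5p of Mirg. The 2 with a shared seed are shown with 1 example from each transcript, since mature microRNAs were not measured here and the host transcripts stand for the only readout of these loci. Seeds are in capitals.
miR-453: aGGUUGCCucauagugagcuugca
miR-496a-5p: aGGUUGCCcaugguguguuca
miR-134-5p: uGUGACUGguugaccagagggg
miR-370-3p: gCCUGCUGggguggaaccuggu
miR-770-5p: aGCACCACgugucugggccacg
In the annotation, miR-134-5p lies in Mirg, miR-370-3p in Rian and miR-770-5p in Meg3.

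Before the results, 2 features of the deposited values bear on every test. In the deposited log2 CPM (counts scaled to a common library size, in log2), the extreme values of a gene within a group were drawn inwards, and all values here have this step undone. Recovered reads ranged from 7071506 to 16658617 per library. In addition, replicates 1 and 3 of every group lay between the other 3 libraries. Among genes of at least 5 log2 CPM, replicate 1 or 3 was the lowest or the highest of its group in 1.0% to 12.1% of genes, against 60.1% to 66.4% for each of replicates 2, 4 and 5, where an even share is 40%. Over the 6834 to 7907 genes with at least 100 reads in each library of a group, the read shares of replicate 3 were given by a weighted sum of replicates 2, 4 and 5, with weights of 0.25 to 0.43. The median squared residual was 0.864 to 2.96 times the value expected from counting alone. For replicate 1 the weights were 0.24 to 0.41 and the ratio 3.27 to 4.56, while replicates 2, 4 and 5 fitted from each other gave ratios of 20 to 48.4. The labels list all 5 as separate libraries, and whether replicates 1 and 3 are separate cultures was not tested. A library near the mean of the others lowers the measured spread, so each result is given for all 5 libraries and again for replicates 2, 4 and 5 alone, for which an exact permutation test cannot go below a p of 0.1. Nothing in the labels says whether the libraries of a group came from separate animals, and p-values measure only the spread between these libraries. In the fits of replicates 2, 4 and 5 alone, the spread used for a gene was that of genes of similar level, not its own.

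The targeted RNA was low in every KO library. In normoxia the Cdr1as level in log2 CPM was 0.31 ± 0.48 in KO against 6.63 ± 0.13 in WT, and under OGD it was 0.11 ± 0.72 in KO against 6.37 ± 0.51 in WT (mean ± SD, n = 5 each). A single mitochondrial RNA, mt-Rnr2, took 10.07% to 16.44% of the reads of a normoxic library and 13.79% to 32.0% of an OGD library, and its part in the scaled levels of the other genes was not tested. All 12 neuron markers were in the tables, and none of 10 microglia markers was.

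Under OGD, Neat1 and Malat1 rose in both genotypes, Neat1 by 5.81-fold in WT and 4.97-fold in KO and Malat1 by 2.18-fold and 2.35-fold. Pantr1 rose by 1.5-fold in WT and 1.49-fold in KO. Meg3 fell in both genotypes, to 0.705 of its normoxic level in WT and 0.670 in KO, and Rian fell in KO, to 0.716. Mirg, Miat and Kcnq1ot1 were not called in either genotype. The calls are those of limma at a Benjamini-Hochberg adjusted p under 0.05 with all 5 libraries. In bulk RNA, fewer cells of a type and less RNA per cell cannot be told apart.

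The background was wide. In OGD_WT against N_WT, 44.3% of 14235 genes were called, 21.6% higher and 22.8% lower, and 26.9% had groups that did not overlap. Of the 8 members, 3 were called higher, 1 lower and 4 not called, and 3 had groups that did not overlap. In OGD_KO against N_KO, 40.9% of 14375 genes were called, 21.0% higher and 19.9% lower, and 25.8% had groups that did not overlap, while of the members 3 were called higher, 2 lower and 3 not called, and 2 did not overlap. With 8 members, nothing particular to them was read from these counts. Their median log2 fold change was -0.09 in WT and -0.10 in KO, beside -0.03 and 0.00 over all genes. With replicates 2, 4 and 5 alone, 16.9% of genes were called in WT and 16.3% in KO. In WT 1140 of 14235 genes were then called higher and 1271 lower, and in KO 1190 of 14375 higher and 1151 lower. Of the members, Neat1 and Malat1 were then called in WT and Neat1 in KO.

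**Figure D1:**
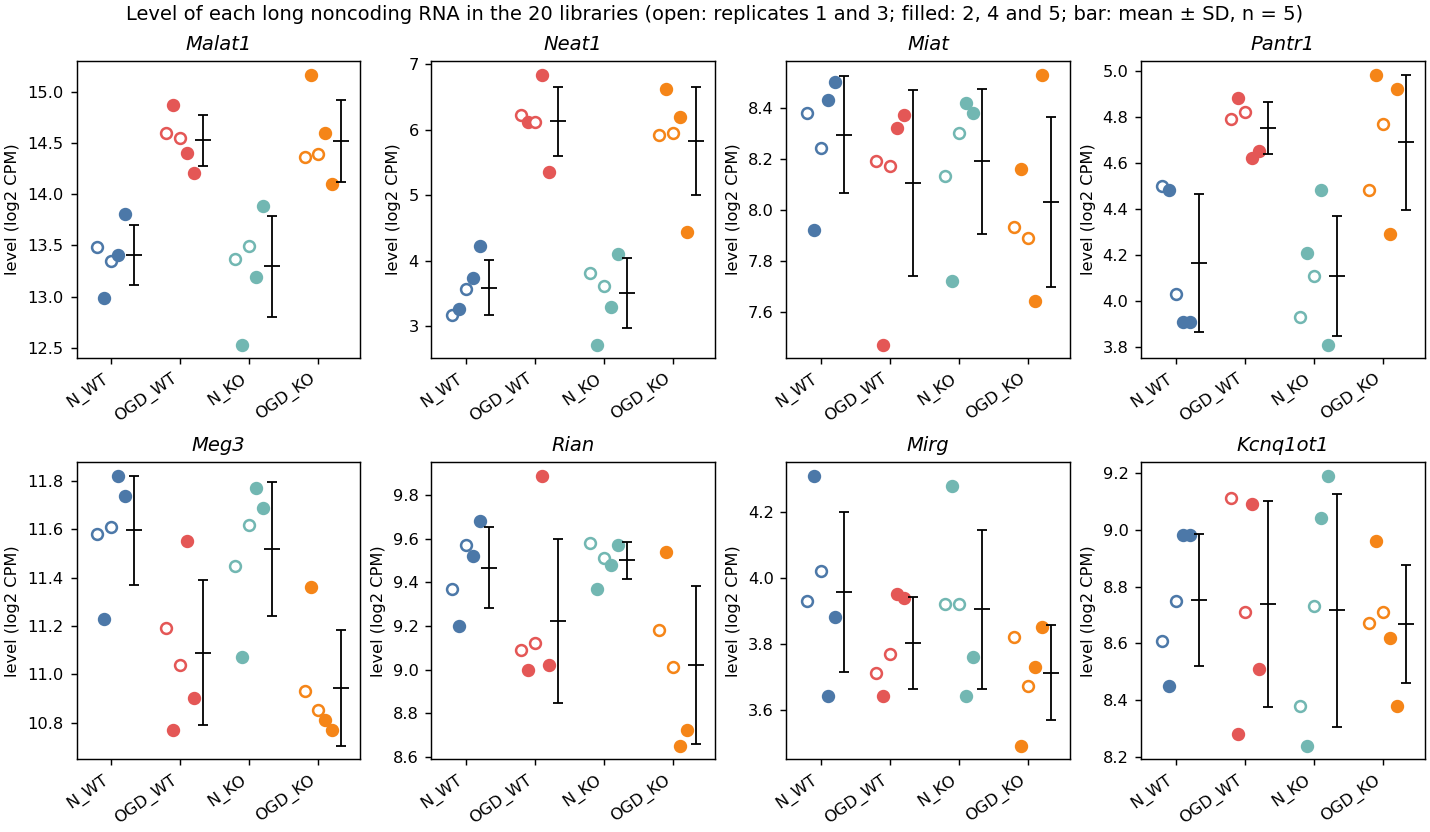
Level of each long noncoding RNA in log2 CPM (vertical axis, its range differing between panels) in each library of N_WT, OGD_WT, N_KO and OGD_KO (horizontal axis), with open points for replicates 1 and 3, filled points for replicates 2, 4 and 5, and bars for the mean and SD of 5 libraries. Neat1 and Malat1 sat higher in every OGD library than in any normoxic library of the same genotype.

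Neat1 was the member with the largest change. Its levels are of the whole gene, which has 4 annotated transcripts. The long form, the paraspeckle scaffold, was therefore not told apart from shorter forms. In N_WT its level was 3.17, 3.26, 3.57, 3.73 and 4.22 log2 CPM in replicates 1 to 5, and in OGD_WT 6.22, 6.11, 6.12, 6.84 and 5.36. N_KO had 3.81, 2.72, 3.61, 3.30 and 4.11, and OGD_KO had 5.92, 6.62, 5.95, 6.19 and 4.44. The groups did not overlap in either genotype, and replicate 5 was both the highest normoxic and the lowest OGD library in both. As shares of reads the KO groups overlapped, at 0.000692% to 0.00186% in N_KO and 0.00168% to 0.00885% in OGD_KO. The log2 fold change was 2.54 (SE 0.22, limma adjusted p = 1.68e-08, exact permutation p = 0.00794) in WT and 2.31 (SE 0.31, adjusted p = 1.32e-05, exact permutation p = 0.00794) in KO, and 0.00794 is the smallest p that 5 against 5 libraries can give. Replicates 2, 4 and 5 alone gave 2.36 in WT (95% interval 1.76 to 2.96, adjusted p = 2.75e-12) and 2.37 in KO (1.77 to 2.97, adjusted p = 1.76e-12). Mirg and Pantr1 had the same SE in these fits (0.31 in WT, 0.30 in KO). These intervals and p-values therefore do not measure the spread of Neat1 itself. In replicates 2, 4 and 5 Neat1 rose by 2.85, 3.11 and 1.13 in WT and by 3.90, 2.88 and 0.32 in KO. The Neat1 levels rested on 90 to 275 reads of Neat1 in a normoxic library and 126 to 1219 in an OGD library.

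The response differed in size between libraries of different number. Libraries of 1 number share a genotype label and a batch. No OGD library deviated from its group mean most like the normoxic library of its number. Replicates 1 and 3 also lay near the mean of the others, so counts by number are not counts of independent pairs. The OGD library exceeded the normoxic library of its number by 1.13 to 3.11 log2 units in WT and by 0.32 to 3.90 in KO. The smallest of these differences was that of replicate 5 in both genotypes, and replicate 2 had the largest in KO.

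Malat1, the abundant RNA of nuclear speckles, rose in the same libraries. Its level was 13.48, 12.99, 13.35, 13.41 and 13.81 log2 CPM in N_WT and 14.60, 14.87, 14.55, 14.40 and 14.21 in OGD_WT. In N_KO it was 13.37, 12.53, 13.49, 13.19 and 13.89, and in OGD_KO 14.36, 15.17, 14.39, 14.60 and 14.10. Every OGD library lay above every normoxic library of its genotype, and the difference between libraries of 1 number was smallest in replicate 5, at 0.39 in WT and 0.21 in KO. The log2 fold change was 1.12 (SE 0.20, adjusted p = 0.000131, exact permutation p = 0.00794) in WT and 1.23 (SE 0.30, adjusted p = 0.00308, exact permutation p = 0.00794) in KO. Malat1 with replicates 2, 4 and 5 alone passed in WT at 1.09 (interval 0.33 to 1.85, adjusted p = 0.0345) and missed the threshold in KO at 1.42 (interval 0.33 to 2.52, adjusted p = 0.062).

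As a share of all recovered reads, Malat1 made up 1.21% ± 0.224 (SD, n = 5) in N_WT, 2.17% ± 0.411 in OGD_WT, 1.16% ± 0.371 in N_KO and 2.22% ± 0.718 in OGD_KO. The range over libraries was 0.665% to 1.67% in normoxia in KO and 1.39% to 3.35% under OGD in KO, so the shares of the KO groups overlapped where the normalised levels did not. Whether groups overlapped thus depended on the scaling for several members, and the shares were not tested.

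Pantr1, the RNA beside Pou3f3, rose by less. In N_WT it was at 4.50, 4.48, 4.03, 3.91 and 3.91 log2 CPM and in OGD_WT at 4.79, 4.88, 4.82, 4.62 and 4.65. N_KO had 3.93, 4.21, 4.11, 4.48 and 3.81 and OGD_KO had 4.48, 4.98, 4.77, 4.29 and 4.92. The WT groups did not overlap, and the KO groups did, through replicate 4, the highest normoxic and the lowest OGD library. As shares of reads the WT groups of Pantr1 overlapped, at 0.00157% to 0.0025% in N_WT and 0.00206% to 0.00271% in OGD_WT. Its log2 fold change was 0.59 (SE 0.15, adjusted p = 0.00409, exact permutation p = 0.00794) in WT and 0.58 (SE 0.17, adjusted p = 0.00963, exact permutation p = 0.0159) in KO. Neither passed with replicates 2, 4 and 5 alone, at 0.62 (adjusted p = 0.158) and 0.56 (adjusted p = 0.211). Pou3f3 itself rose by 0.64 (limma adjusted p = 0.00179) in WT and 0.58 (adjusted p = 0.00523) in KO, with log2 CPM that did not overlap in either genotype. As shares of reads its groups overlapped in both. The shares were 0.0181% to 0.0256% in N_WT and 0.0246% to 0.0372% in OGD_WT. In KO they were 0.0207% to 0.0248% in N_KO and 0.023% to 0.0364% in OGD_KO.

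Miat, the neuronal nuclear RNA, was not called. It was at 8.38, 7.92, 8.24, 8.43 and 8.50 log2 CPM in N_WT and 8.19, 7.47, 8.17, 8.32 and 8.37 in OGD_WT, and replicate 2 was the lowest in both. In N_KO it was at 8.13, 7.72, 8.30, 8.42 and 8.38 and in OGD_KO at 7.93, 8.16, 7.89, 7.64 and 8.53. Its log2 fold change was -0.19 (95% interval -0.55 to 0.17) in WT and -0.16 (-0.55 to 0.22) in KO, with adjusted p = 0.393 and 0.504. In WT all 5 OGD libraries were below the normoxic library of their number, and in KO 3 of 5 were, which are not counts of independent pairs.

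**Figure D2:**
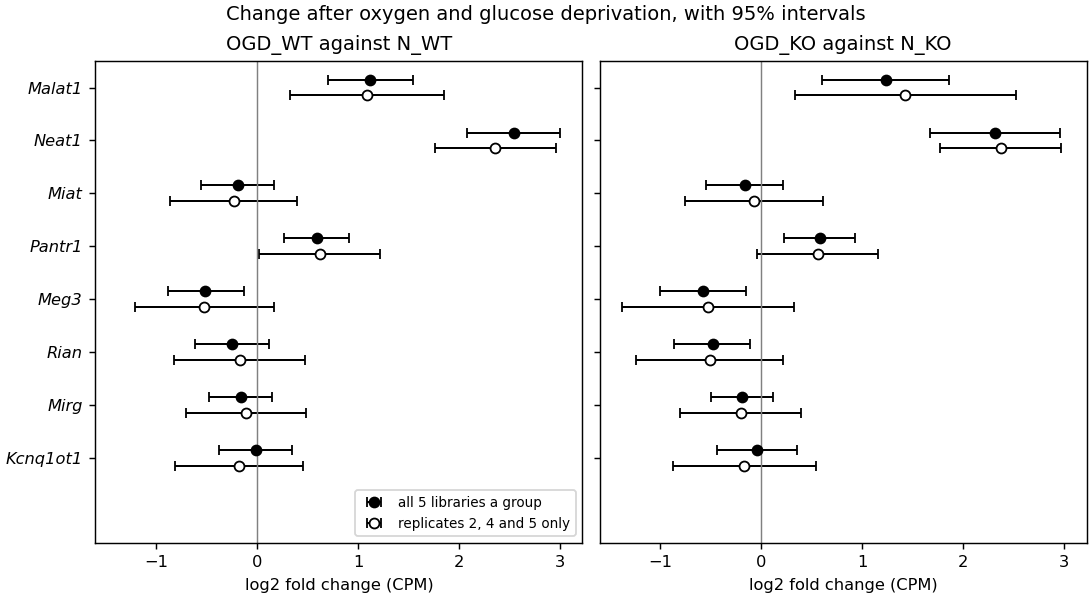
Log2 fold change of each long noncoding RNA under OGD against normoxia (horizontal axis) in WT on the left and KO on the right, with 95% intervals from limma, filled for all 5 libraries a group and open for replicates 2, 4 and 5 alone. Neat1 lay at 2.54 and 2.31 with all libraries, and the open intervals of Meg3 and Rian included 0.

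Meg3, the first of the maternally expressed transcripts of the Dlk1-Dio3 region, was lower under OGD. Its level in N_WT was 11.58, 11.23, 11.61, 11.82 and 11.74 log2 CPM and in OGD_WT 11.19, 10.77, 11.04, 11.55 and 10.90. In N_KO it was 11.45, 11.07, 11.62, 11.77 and 11.69 and in OGD_KO 10.93, 11.36, 10.85, 10.81 and 10.77. The groups overlapped in both genotypes on this scale, but not as shares of reads. The shares were 0.274% to 0.395% in N_WT and 0.163% to 0.256% in OGD_WT. In KO they were 0.243% to 0.375% in N_KO and 0.138% to 0.237% in OGD_KO. In WT the OGD library was lower in all 5 numbers, and in KO in 4 of 5, replicate 2 being the exception. The log2 fold change was -0.51 (SE 0.18, adjusted p = 0.0261, exact permutation p = 0.0159) in WT and -0.58 (SE 0.20, adjusted p = 0.0286, exact permutation p = 0.0159) in KO. Replicates 2, 4 and 5 alone gave -0.52 (95% interval -1.21 to 0.17, adjusted p = 0.338) and -0.53 (-1.38 to 0.32, adjusted p = 0.447), which did not pass. The WT call was also lost without OGD_WT replicate 2 (adjusted p = 0.0564) or 3 (0.0633) or N_WT replicate 3 (0.0572) or 4 (0.0576). The KO call was lost without OGD_KO replicate 1 (adjusted p = 0.0613) or 3 (0.0758) or N_KO replicate 1 (0.0522), 3 (0.0736), 4 (0.0524) or 5 (0.0556). Libraries of 1 number in N and OGD share a genotype label and a batch, and with this number as a replicate block Meg3 missed the threshold in KO (-0.58, adjusted p = 0.0756) and passed it in WT (-0.51, 0.011).

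Rian, the transcript that follows Meg3 and holds a cluster of small nucleolar RNAs, was at 9.37, 9.20, 9.57, 9.52 and 9.68 log2 CPM in N_WT and 9.09, 9.0, 9.12, 9.89 and 9.02 in OGD_WT. In N_KO it was at 9.58, 9.37, 9.51, 9.48 and 9.57, the tightest of the 4 groups, and in OGD_KO at 9.18, 9.54, 9.01, 8.65 and 8.72. Replicate 4 was the highest library of OGD_WT and the lowest of OGD_KO. The KO groups overlapped in level but not as shares of reads, at 0.0747% to 0.0855% in N_KO and 0.0333% to 0.0672% in OGD_KO. The log2 fold change was -0.25 in WT (SE 0.18, adjusted p = 0.264, exact permutation p = 0.214) and -0.48 in KO (SE 0.18, adjusted p = 0.0382, exact permutation p = 0.0317). Without OGD_WT replicate 4 the WT value was -0.41 and was called (adjusted p = 0.0197). The KO call was lost with replicates 2, 4 and 5 alone (-0.51, adjusted p = 0.385). It was also lost on leaving out any one of OGD_KO replicates 1, 3, 4 and 5 or N_KO replicates 1, 3, 4 and 5, with adjusted p = 0.0501 to 0.0864. With the replicate block Rian missed the threshold in KO (-0.48, adjusted p = 0.069).

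Mirg, the transcript that holds the largest microRNA cluster of the 3, was at 3.93, 4.31, 4.02, 3.64 and 3.88 log2 CPM in N_WT and 3.71, 3.64, 3.77, 3.95 and 3.94 in OGD_WT. N_KO had 3.92, 4.28, 3.92, 3.64 and 3.76 and OGD_KO had 3.82, 3.49, 3.67, 3.73 and 3.85. The groups overlapped, and in each genotype 3 of 5 OGD libraries were below the normoxic library of their number. As shares of reads the KO groups of Mirg did not overlap, at 0.00129% to 0.00214% in N_KO and 0.00098% to 0.00128% in OGD_KO. Its log2 fold change was -0.16 (95% interval -0.47 to 0.15, adjusted p = 0.411) in WT and -0.19 (-0.50 to 0.12, adjusted p = 0.312) in KO. Mirg had 83 to 286 reads in a library, against 10382 to 53781 for Meg3.

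The 3 transcripts were set side by side on a joint scale of recovered reads over the 20 libraries. The log2 ratio of Meg3 to Rian stayed between 1.67 and 2.30 in every library (SD 0.19), while that of Meg3 to Mirg ranged from 6.81 to 8.20 (SD 0.42). After each gene was centred on its own mean, the root mean square difference between Meg3 and Rian was 0.19, which placed Rian 37th among 12617 genes in likeness to Meg3, and that between Meg3 and Mirg was 0.41, which placed Mirg 4336th. These ranks describe the same libraries and share their depth. Malat1 and Neat1, neighbours on chromosome 19, had a root mean square difference of 0.74, since Neat1 changed by more, and Neat1 ranked 6428th for Malat1.

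**Figure D3:**
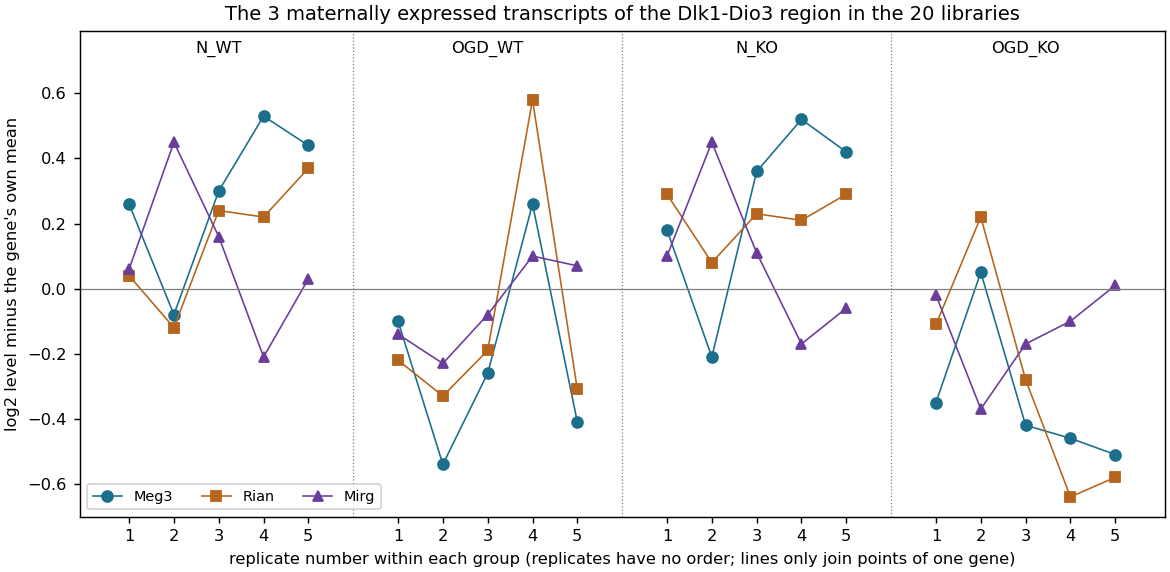
Level of Meg3 (circles), Rian (squares) and Mirg (triangles) in each of the 20 libraries, as log2 units above or below the gene's own mean (vertical axis), by group and replicate number (horizontal axis). Meg3 and Rian moved together, with a log2 ratio between 1.67 and 2.30. Mirg parted from them in several libraries, among them replicate 2 of N_WT and N_KO, where it was highest, at 0.45 in both. In replicate 4 of N_WT and N_KO it was at -0.21 and -0.17, against 0.53 and 0.52 for Meg3.

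Of the protein genes of the Dlk1-Dio3 region, 5 were in both OGD tables, and Dlk1 and Dio3 were not among them. Rtl1, the retrotransposon-derived gene expressed from the paternal allele, rose by 0.97 in KO (adjusted p = 0.000969), while its value in WT was 0.49 (adjusted p = 0.0718). Begain was at -0.05 and 0.05, Wdr25 at -0.04 and -0.16, Wars at -0.38 and -0.15, and Ppp2r5c at -0.07 and -0.12 in WT and KO, none of them called. None of the 5 was called with replicates 2, 4 and 5 alone.

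Kcnq1ot1 was not called in either genotype. Its level was 8.61, 8.45, 8.75, 8.98 and 8.98 log2 CPM in N_WT and 9.11, 8.28, 8.71, 9.09 and 8.51 in OGD_WT. The KO levels were 8.38, 8.24, 8.73, 9.04 and 9.19 in N_KO and, in OGD_KO, 8.67, 8.96, 8.71, 8.62 and 8.38. The groups overlapped over most of their range. The log2 fold change was -0.01 (95% interval -0.38 to 0.35, adjusted p = 0.956) in WT and -0.04 (-0.44 to 0.35, adjusted p = 0.87) in KO, so these intervals allow changes of up to 0.44 log2 units. Of the protein genes of its region, Cdkn1c, a cell cycle inhibitor, rose by 0.47 (adjusted p = 0.0186) in WT and 0.49 (adjusted p = 0.0202) in KO, and Cd81, a tetraspanin, by 0.53 (0.008) and 0.39 (0.0375). Dhcr7, the last enzyme of cholesterol synthesis, fell by 0.76 (adjusted p = 0.00284) and 0.69 (0.00157). Osbpl5 fell by 0.53 in WT (adjusted p = 0.0339), with a value of -0.41 in KO (0.0663). Nap1l4 (-0.18 and -0.08), Tssc4 (-0.16 and -0.31), Nadsyn1 (-0.05 and 0.22) and Cars (0.08 and 0.15) were not called, nor was Tnfrsf23 in KO (-0.12). No gene of this list was called in either genotype with replicates 2, 4 and 5 alone.

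Of the genes around Malat1 and Neat1, Ltbp3 rose by 0.59 (adjusted p = 0.00497) in WT and 0.44 (0.0457) in KO. Frmd8 was at 0.09 and 0.39 and was not called in either. Neither these genes nor Pou3f3 were called with replicates 2, 4 and 5 alone.

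The genes for proteins of the bodies that Neat1 and Malat1 belong to were counted next, by their RNA levels. Of 14 genes for paraspeckle proteins, 3 were called higher and 11 not called in WT, with a median of 0.15, and 4 were called higher and 10 not called in KO, with a median of 0.13. Over all genes, 21.6% were called higher in WT and 21.0% in KO, and nothing particular to the paraspeckle genes was read from their counts. The largest rise among them was 0.48 for Cpsf7 in WT and 0.52 for Ewsr1 in KO. Of 19 genes for speckle and splicing proteins, 12 were called higher in each genotype, with 1 called lower in WT, and the medians were 0.60 and 0.56. Clk1, a kinase of splicing factors, rose most, by 1.34 and 1.26, and Srsf7 fell by 0.41 in WT. With replicates 2, 4 and 5 alone, 0 of 14 paraspeckle proteins were called in either genotype. Of 19 speckle and splicing proteins, 5 were then called higher in WT and 3 in KO. Among all genes, these fits called 1140 of 14235 higher in WT and 1190 of 14375 in KO.

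Genes known to be induced by low oxygen were high in the same libraries. Of 17 in the tables, 16 were called higher and 1 lower in each genotype, with medians of 2.12 in WT and 1.76 in KO, and 16 were called higher in each with replicates 2, 4 and 5 alone. The share of all genes called higher with all 5 libraries was 21.6% in WT and 21.0% in KO. With replicates 2, 4 and 5 alone it was 1140 of 14235 genes in WT and 1190 of 14375 in KO. Slc2a1, the glucose transporter, rose most, by 3.95 and 3.50, and Ndrg1 fell by 0.49 and 0.65. Of the subunits of the hypoxia-inducible factors, Arnt rose by 0.69 (adjusted p = 0.000942) in WT and 0.68 (0.00635) in KO and Hif1a by 0.36 (0.0468) in WT, with a value of 0.35 in KO (0.0714). Hif3a fell by 1.07 in WT (0.00347), with -0.51 in KO (0.119). These values rested on few reads, 16 to 31 in an N_WT library and 1 to 12 in an OGD_WT library. In KO they were 11 to 45 in N_KO and 4 to 19 in OGD_KO. Epas1 (0.34 and 0.26) and Arnt2 (-0.28 and -0.29) were not called. Of these 5 subunits, 1 was called lower in WT and none in KO with replicates 2, 4 and 5 alone.

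Other noncoding and imprinted genes moved in both directions. Beside their counts with all 5 libraries, 21.6% of all genes were called higher and 22.8% lower in WT, and 21.0% and 19.9% in KO. Of 23 further long noncoding RNAs, 9 were called higher and 5 lower in WT and 8 and 4 in KO, with medians of 0.17 and 0.36. Snhg12, a host of small nucleolar RNAs, rose most (1.65 and 1.85), and Oip5os1, known as Cyrano, fell most (-1.11 and -1.12). Of imprinted protein genes elsewhere, 7 of 22 were called higher and 1 lower in WT, where Mest rose by 1.23, and 7 of 24 higher and 2 lower in KO, where Snurf rose by 1.67. Blcap fell most in both, by 0.57. With replicates 2, 4 and 5 alone, 5 and 4 of the noncoding RNAs and 4 and 3 of the imprinted genes were called higher. Of the noncoding RNAs 1 and 2 were called lower. Among all genes, these fits called 1140 of 14235 higher and 1271 lower in WT, and 1190 of 14375 higher and 1151 lower in KO.

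Markers of cell types moved with the treatment, as did many genes. Among all genes 21.6% were called higher and 22.8% lower in WT with all 5 libraries, and 21.0% and 19.9% in KO. Of 12 neuron markers, 6 were called lower in WT and 7 in KO, with medians of -0.48 and -0.59, and none was called higher. Their summed level was 12.61 to 12.91 log2 CPM in N_WT, 11.97 to 12.72 in OGD_WT, 12.69 to 12.73 in N_KO and 12.04 to 12.43 in OGD_KO. Of 9 astrocyte markers, 6 were called higher and 1 lower in WT and 5 higher in KO, with summed levels of 10.18 to 10.51 in N_WT, 10.88 to 11.19 in OGD_WT, 9.80 to 10.63 in N_KO and 10.58 to 11.20 in OGD_KO. Of 12 progenitor and proliferation markers, 8 were called higher in each genotype and 1, Eomes, lower in WT (-0.48), with summed levels of 9.77 to 10.15 in N_WT, 10.39 to 11.29 in OGD_WT, 9.67 to 10.24 in N_KO and 10.79 to 11.08 in OGD_KO. Of 8 oligodendrocyte lineage markers, 1 was called higher and 2 lower in WT and 3 higher in KO. Endothelial and mural markers were few in the tables, 1 of 2 called higher and 1 lower in WT and 1 of 4 higher in KO. The 15 mitochondrially encoded RNAs had 9 called higher in each genotype and 1 lower in WT, with medians of 0.64 and 0.73. The largest fall among neuron markers was that of Slc17a7, a vesicular glutamate transporter (-1.69 in WT and -1.62 in KO). Among astrocyte markers Slc1a3, a glutamate transporter, rose most in WT (1.08) and Gfap fell (-0.47), and Fgfr3 rose most in KO (1.02). Ccnb1, a mitotic cyclin, led the proliferation markers (1.49 and 1.58). Cspg4 rose (0.66) and Mbp fell (-0.56) in WT, and Olig2 rose in KO (0.53). Kdr rose in both genotypes (0.60 and 1.11) and Pdgfrb fell in WT (-0.66). Of the mitochondrial RNAs mt-Co2 rose most in WT (1.21), where mt-Nd3 fell (-0.81), and mt-Atp6 in KO (1.28). The part of these shifts in the changes of the members was not tested. With replicates 2, 4 and 5 alone, 3 and 5 neuron markers were called lower. In these fits 5 and 2 astrocyte, 5 and 4 progenitor and 2 and 2 mitochondrial genes were called higher, with 1 mitochondrial gene lower in KO. Among all genes, they called 1140 of 14235 higher and 1271 lower in WT, and 1190 of 14375 higher and 1151 lower in KO.

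Genotype was compared within each treatment. In normoxia 0.0353% of 14152 genes were called between N_KO and N_WT and 0.325% had groups that did not overlap, and under OGD 0.0282% of 14185 were called and 0.345% did not overlap. No member was called and no member's groups separated in either condition. By limma the smallest unadjusted p among the members was 0.599 in normoxia and 0.377 under OGD, so 0 of 8 were under 0.05 without adjustment. The differences lay between -0.08 (Malat1) and 0.07 (Rian) log2 units in normoxia and between -0.29 (Neat1) and 0.01 (Malat1) under OGD. With replicates 2, 4 and 5 alone, 0.205% and 0.127% of genes were called, and again no member.

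A missed threshold does not show equal levels. Neat1 and Miat are the 2 members with an 8-base miR-7 site in their longest transcript. Their 95% intervals of KO minus WT were -0.54 to 0.44 for Neat1 and -0.39 to 0.26 for Miat in normoxia. Under OGD they were -0.96 to 0.38 and -0.48 to 0.36. These levels are of the whole gene, whereas the Neat1 site lies at position 18985 of the 20771-base transcript. For Meg3 the intervals were -0.39 to 0.31 and -0.53 to 0.27, for Rian -0.20 to 0.34 and -0.62 to 0.25, and for Mirg -0.34 to 0.30 and -0.37 to 0.22. Malat1 had intervals of -0.54 to 0.39 and -0.50 to 0.53, Kcnq1ot1 -0.38 to 0.37 and -0.44 to 0.33, and Pantr1 -0.37 to 0.32 and -0.37 to 0.27.

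The difference between genotypes in the response to OGD was tested over the 20 libraries. No gene of 13688 was called (0.0%), and so no member was. By limma, 98 genes (0.716%) had an unadjusted p under 0.05, less than the share of 0.05 that unchanged genes would give. Libraries of 1 culture had a consensus correlation of -0.191, and a negative value widens the interval of this difference. A missed call here therefore does not show equal responses. The response in KO minus that in WT was -0.24 for Neat1 (95% interval -1.18 to 0.70), 0.09 for Malat1 (-0.65 to 0.82), -0.09 for Meg3 (-0.68 to 0.49) and -0.26 for Rian (-0.82 to 0.31). The values for Mirg (-0.06), Miat (0.01), Kcnq1ot1 (-0.05) and Pantr1 (-0.03) had intervals that reached at most 0.65 in either direction. The fall of Rian, called in KO and not in WT, was therefore not shown to differ between the genotypes (adjusted p = 1.0).

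**Figure D4:**
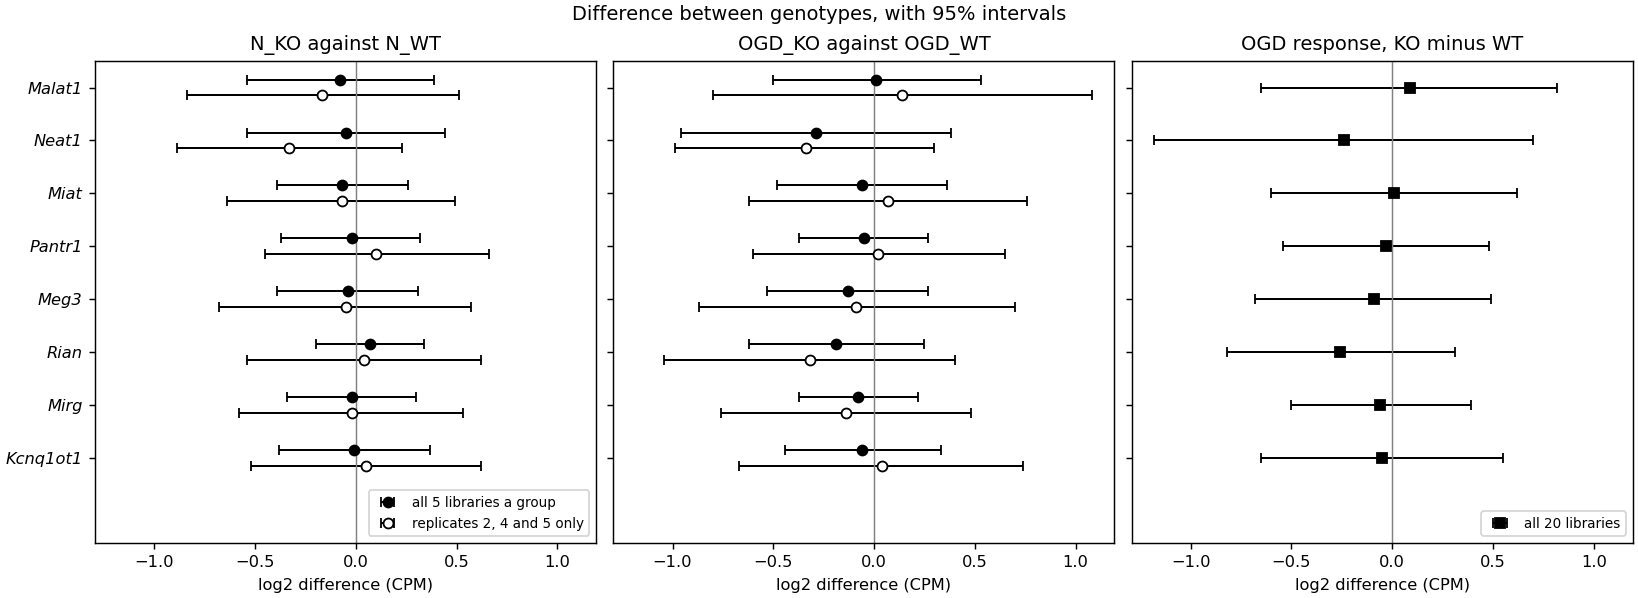
Difference between genotypes in log2 units (horizontal axis) for each long noncoding RNA, as KO minus WT in normoxia (left), KO minus WT under OGD (middle) and the OGD response in KO minus that in WT (right), with 95% intervals from limma. In the left and middle panels filled points use all libraries and open points replicates 2, 4 and 5 alone. The right panel shows the fit of all 20 libraries only. Every interval shown included 0.

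For each member, the genes of at least 1 log2 CPM with the most similar pattern over the 20 libraries were found by the root mean square difference of centred log2 levels, among 12617 genes. Malat1 was closest to Clk4 (0.22), Mbnl2 (0.25) and Atxn7 (0.26), where the median over all genes was 0.74. Neat1 was closest to Lonrf3 (0.48), Gm16310 (0.51) and Kif18a (0.52), and no gene came closer than 0.48, against a median of 1.38. Meg3 was closest to Nucb2 (0.13), Gm20172 and Nrg3 (both 0.14), and Rian to Cdc42bpa (0.10), Ubfd1 (0.12) and Cnnm1 (0.13). Mirg was closest to Timm29 and Dpy19l1 (both 0.09) and Fbxw2 (0.10), Miat to Cntn5 (0.13), Tspyl2 and Scn8a (both 0.15), Kcnq1ot1 to Akap17b, Gm42974 and Trnt1 (all 0.16), and Pantr1 to Rps24 (0.12), Pcnt (0.13) and Fxr2 (0.14). A gene that varies little is close to many others, and the libraries and their depth are shared by all genes.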

How the data were processed

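RNA sequencing of total RNA from 20 libraries in 4 groups of 5 was deposited as 4 tables of log2 CPM, 1 for each pair of groups, with 14152 to 14375 genes each. The genome build was mm10 per the submitters' processing notes, and the aligner, the counter and the gene annotation are not given in the sources used here. In the deposited log2 values, a gene's extremes within a group were means of the extreme and its neighbour weighted 0.6 and 0.4, as the 10th and 90th percentiles of 5 values are, and this step, read from the values and stated in no label, was undone. Of values up to 500 reads, 45.5% to 92.8% per library were whole reads (within 0.05 reads) as deposited and 99.91% to 99.99% once undone. Recovered reads were 7071506 to 16658617 per library. Since every group has 5 libraries, their number limits the precision.

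Each pair of groups was fitted with limma 3.58.1 (R 4.3.3) on the log2 CPM of its own table, with no covariate, and p-values were adjusted over all genes by the Benjamini-Hochberg method. Called means an adjusted p under 0.05. Single genes were also tested with exact two-sided permutation tests (scipy 1.17.1). Differences between genotypes in the response were fitted over the 13688 genes of all 4 tables on recovered reads with a prior count of 2 and the culture (libraries of 1 genotype label) as a random block. By the labels, N and OGD libraries of 1 number share the genotype label and the batch, which pairs them. Their deviations from the group means had correlations of -0.18, -0.02, -0.45, 0.11 and -0.20 in WT and -0.07, -0.11, -0.67, -0.11 and -0.31 in KO. For every OGD library, the highest correlation was with a normoxic library of another number. The limma fit was tested on simulated reads of independent libraries, with 200 of 14235 genes changed by 1 log2 unit. It recovered 97.8% of these, and 4.12% of its calls were false. The simulation left out the nearness of replicates 1 and 3 to the others and had far fewer changed genes. It therefore does not show how the fit performs on these data. Alternatives were the values as deposited, a replicate block, batch 3 cultures alone or batch as a covariate, recovered reads scaled by median of ratios with a prior count of 2 or 0.5, a filter at a mean of 1 log2 CPM, leaving out each library, and replicates 2, 4 and 5 alone. The last was chosen after seeing the data. Batch 3 means batches 3.1, 3.2 and 3.3 together, and the covariate used batch by its first digit. The members and the gene lists were chosen with earlier results of these data known. Named genes were all members, the region and neighbour genes in the tables, the subunits of the hypoxia-inducible factors, the most changed called gene of each list in each direction, and the 3 genes most like each member. An item of these lists is not reported here. Motifs were searched on both strands of RefSeq promoters (GRCm38.p6), and microRNA sequences are from RefSeq of the same build.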

Additional observations from a re-analysis of the deposited data

Results flagged for a closer look

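In 3 of the 32 sets of 5 libraries (8 members in 4 groups), 1 library stood apart from the other 4, where its gap to the nearest library exceeded 0.71 of the range of the group. Chance marks about 1 in 20 such sets, or 1.6 of 32, where the 5 libraries are independent. Replicates 1 and 3 lay near the mean of the other 3 libraries in every group, and the rate under that pattern was not computed. Rian was at 9.89 log2 CPM in OGD_WT replicate 4, against 9.0 to 9.12 in the other 4 libraries, a gap of 0.87 of the range. Miat was at 7.47 in OGD_WT replicate 2, against 8.17 to 8.37 (0.77 of the range). Meg3 was at 11.36 in OGD_KO replicate 2, against 10.77 to 10.93 (0.73 of the range).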

How the results depend on the processing

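Neat1 was called higher under OGD in both genotypes in all alternatives, and Malat1 in WT. Malat1 in KO (1.42, adjusted p = 0.062) and Pantr1 in KO (0.56, 0.211) missed the threshold with batch 3 cultures alone, which in KO are replicates 2, 4 and 5. Meg3 in WT missed it with batch 3 alone (-0.53, 0.074). Leaving out 1 library kept Malat1 at 1.02 to 1.22 in WT and 1.04 to 1.38 in KO, Pantr1 at 0.52 to 0.67 and 0.50 to 0.68, and Meg3 at -0.62 to -0.43 and -0.69 to -0.52. With values as deposited Rian was called in WT (-0.31, 0.0323). Where a call or a count changed, the cause was not tested.

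The genes called in OGD_WT against N_WT numbered 6313, and 2411 with replicates 2, 4 and 5 alone. In OGD_KO against N_KO they numbered 5884, and 2341 with batch 3 alone, the same libraries as replicates 2, 4 and 5 (2341). In N_KO against N_WT 5 genes were called, 9 with values as deposited, 3 with the replicate block, 2 with batch 3 alone, 3 with the filter at 1 log2 CPM, 29 with replicates 2, 4 and 5, and 3 to 5 without 1 library, fewest without N_KO replicate 2. In OGD_KO against OGD_WT 4 genes were called, 12 with values as deposited, 2 with the replicate block, 1 with a prior count of 0.5, 2 with batch as a covariate, 18 with replicates 2, 4 and 5, and 1 to 7 without 1 library, most without OGD_KO replicate 5 and fewest without OGD_KO replicate 1 or 2.

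With the replicate block, which pairs N and OGD libraries of the same genotype label and batch, 5681 genes were called in WT and 4829 in KO. It ended the calls of Meg3 (-0.58, adjusted p = 0.0756) and Rian (-0.48, 0.069) in KO and changed no other call of a member. Between genotypes a shared number names different cultures.

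Differences that were not called changed sign. In N_KO against N_WT, Neat1 was 0.01 with values as deposited, Kcnq1ot1 0.06, 0.00 and 0.05 with batch 3, batch as a covariate and replicates 2, 4 and 5, and Pantr1 0.12 and 0.10 with batch 3 and replicates 2, 4 and 5. In OGD_KO against OGD_WT, Malat1 was -0.01 as deposited, and with batch 3 and replicates 2, 4 and 5 Miat was 0.04 and 0.07 and Kcnq1ot1 0.02 and 0.04, with Pantr1 at 0.02 in the latter. The response difference of Neat1 was 0.00 with replicates 2, 4 and 5. Without 1 library, N_KO against N_WT ranged from -0.12 to 0.12 for Kcnq1ot1, -0.22 to 0.12 for Malat1, -0.13 to 0.08 for Meg3, -0.16 to 0.05 for Miat, -0.11 to 0.07 for Mirg, -0.20 to 0.15 for Neat1 and -0.12 to 0.06 for Pantr1. OGD_KO against OGD_WT ranged from -0.17 to 0.04 for Kcnq1ot1, -0.14 to 0.12 for Malat1, -0.22 to 0.04 for Miat, -0.48 to 0.06 for Neat1 and -0.12 to 0.05 for Pantr1. Kcnq1ot1 under OGD ranged from -0.11 to 0.10 in WT and -0.16 to 0.07 in KO. The response difference ranged from -0.24 to 0.14 for Kcnq1ot1, -0.26 to 0.34 for Malat1, -0.31 to 0.00 for Meg3, -0.14 to 0.16 for Miat, -0.19 to 0.10 for Mirg, -0.64 to 0.26 for Neat1 and -0.16 to 0.17 for Pantr1.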
